A study of Mus musculus with 13 samples.

Results

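Transcripts of 8 tissue kallikreins (Klk5, Klk6, Klk7, Klk8, Klk9, Klk10, Klk11 and Klk13) and of 2 protease inhibitors, the cystatin Cst6 and the serine protease inhibitor Spink5, were examined in mammary tumors of mice that carry a Tsg101 transgene. The 10 genes were picked by symbol from the 15213 genes of the count table, with their high values in tumors against glands already known. Their difference between tumors and glands is therefore a description and was not tested. The tumors came from MMTV-tTA TetO-Tsg101 females (MtTA Teto-TSG101wt in the labels), in which the MMTV promoter drives the tetracycline-controlled transactivator tTA mainly in the mammary epithelium, and tTA switches on a TetO-driven transgene coding for HA-tagged TSG101 and luciferase. The comparison tissue was normal mammary gland of wild-type FVB females, which carry neither transgene. There were 10 tumors from 6 mice, since 3 mice gave 1 tumor, 2 mice gave 2 tumors and 1 mouse gave 3 tumors, and there were 3 glands from 3 mice. The ages of the animals and the reproductive stage of the gland donors were not given in the sources used here. The glands were whole tissue from unaltered mice, so that tumor state and transgene cannot be told apart.

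Tissue kallikreins are secreted serine proteases that are encoded side by side in a large gene cluster. In the epidermis they activate one another in a cascade and cut the desmosomal proteins that hold cornified cells together, which lets these cells shed. Their activity is held in check by LEKTI, the multidomain inhibitor encoded by Spink5, whose loss in humans causes Netherton syndrome. Cst6 encodes cystatin M/E, which inhibits the cysteine proteases legumain and cathepsin L and by this route limits transglutaminase activity during cornification. The resting mammary epithelium is made of luminal and basal cells and does not cornify.

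Tumor libraries held 6176269 to 16835397 reads and gland libraries 11672487 to 23889042. Levels are normalized cpm, which are read counts scaled by the authors in edgeR and not by library size alone, and are given as mean ± SD. A single read stood for 0.228 normalized cpm in tumor 9 and 0.148 in tumor 10, at 6183457 and 6176269 reads. A count of 0 over all 3 glands leaves room for 3 reads, which amounts to 0.0589 normalized cpm. Tsg101 itself averaged 66.5 ± 15.5 across tumors and 53.2 ± 7.68 across glands, with a log2 fold change of 0.30 ± 0.20 (SE, adjusted p = 0.296 in limma). Higher Tsg101 RNA in the libraries labelled as transgenic tumors was therefore not detected. Of the 10 genes, 9 passed the filter on low values and Klk9 did not. The filter asked for more than 5 normalized cpm in at least 7 of the 13 libraries, and no gland reached this level for any of the 10 genes other than Klk8.

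Each of the 10 genes was higher in all 10 tumors than in all 3 glands. Of all genes listed, 11.4% had tumors and glands that did not overlap in this direction. As the genes were selected on this contrast, nothing is read from the count. The log2 differences between the group means, on the log2(normalized cpm + 1) scale, ran from 2.20 for Klk9 to 8.88 for Cst6 with a median of 5.16, beside a median of 0.01 over all genes listed. This scale understates the change of genes with low values. In whole tissue, more cells of a type and more RNA per cell cannot be told apart.

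**Figure D1:**
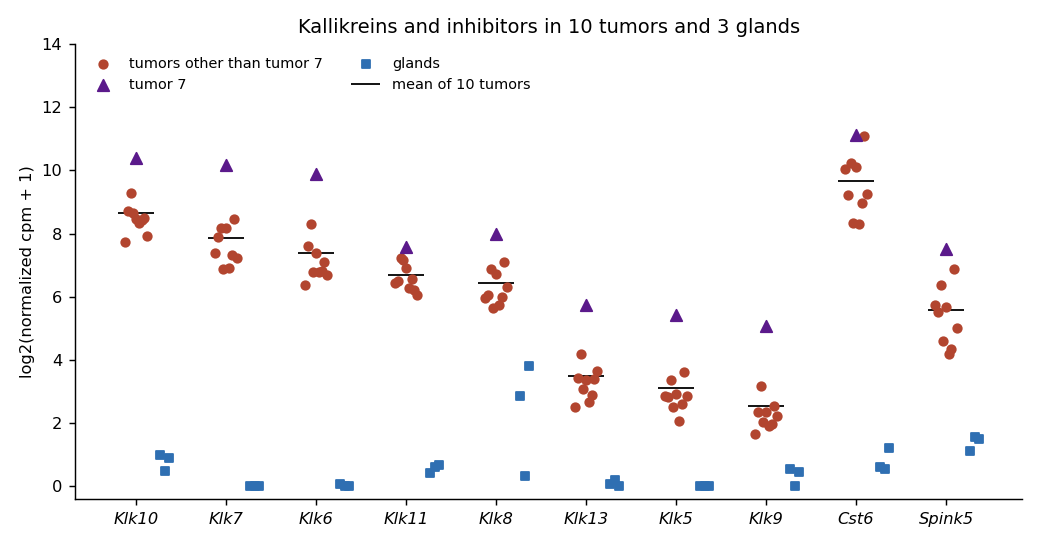
Level of each gene in each library as log2(normalized cpm + 1), with circles for 9 tumors, a triangle for tumor 7, squares for the 3 glands and a line at the mean of the 10 tumors. All tumors lie above all glands for each gene, and the 3 glands of Klk8 lie farther apart than those of any other gene.

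Klk10, a kallikrein first described as a gene of normal epithelial cells, had the highest level of the proteases per kb of exon. The lowest tumor had 211.2 normalized cpm, the median tumor 352.9 and the highest 1347, whereas glands 1, 2 and 3 had 0.985, 0.413 and 0.853. The tumor mean of 461.1 ± 331 (SD, n = 10) was 615-fold above the gland mean of 0.750 ± 0.299 (SD, n = 3). Tumor 7 was highest and tumor 1 lowest, and the gap between the lowest tumor and the highest gland was wider than the range of the 9 tumors other than tumor 7 on a log scale.

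Klk7 encodes the chymotrypsin-like enzyme of the cornified layer that degrades corneodesmosomes. It was at 115.8, 201.0 and 1158 normalized cpm in the lowest, median and highest tumor, and no read was counted in any of the 3 glands. The tumor mean of 302.7 ± 311 (SD, n = 10) was at least 5139-fold higher than the gland floor of 3 reads over the group, and at least 3527-fold higher without tumor 7. Tumor 7 was the highest, followed by tumor 9 with 351.0.

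Klk6, a trypsin-like protease that is also abundant in the nervous system, was at 81.5, 123.3 and 941.4 normalized cpm in the lowest, median and highest tumor. A single read was counted in gland 1 and none in glands 2 and 3. The ratio of the tumor mean of 226.2 ± 260 (SD, n = 10) to the pooled gland level was 11519, with a 95% exact Poisson interval from 2068 to 454995 for the gland reads. Such intervals cover counting error only. For a gene with no gland read, the floor of 3 reads is a one-sided limit. The low end of this two-sided interval would be 4179 for Klk7. Without tumor 7 the mean of Klk6 was 146.7 ± 70.7.

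Klk11, another trypsin-like member, was the most even of the 10 genes among the tumors. Its lowest, median and highest tumors were at 66.0, 90.7 and 190.2 normalized cpm, and the glands were at 0.343, 0.516 and 0.610. The mean of 108.4 ± 40.6 (SD, n = 10) was 221-fold above the gland mean of 0.489 ± 0.136 (SD, n = 3). The coefficient of variation of Klk11 among the tumors was 37.5%, against 136% for Klk9 at the other end.

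Klk8 encodes neuropsin, a protease of the hippocampus and of the upper epidermis, and had the highest mean level per kb of exon of the 10 genes in the glands. Gland 1 had 6.29 and gland 3 had 13.04 normalized cpm, whereas gland 2 had 0.258. The tumors ran from 49.0 through a median of 71.4 to 254.5, so that even the lowest tumor exceeded gland 3. The means were 97.7 ± 62.2 (SD, n = 10) and 6.53 ± 6.40 (SD, n = 3), a 15.0-fold difference that became 29.8-fold without gland 3 and 10.1-fold without gland 2. The summed level of 9 lymphocyte genes was also lowest in gland 2, at 44.3 normalized cpm against 710 and 725 in glands 1 and 3, and its part in the Klk8 result was not tested.

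Klk13, Klk5 and Klk9 were the lowest of the 10 genes per kb of exon. Klk13 was at 4.74, 9.45 and 52.4 normalized cpm in the lowest, median and highest tumor, and the glands gave 4 reads together, 1 in gland 1 and 3 in gland 2. Its tumor mean of 13.4 ± 14.2 (SD, n = 10) was 170 times the pooled gland level, with a 95% exact Poisson interval from 66.6 to 626. As a ratio of group means the Klk13 difference was 203-fold, and it was 625-fold without gland 2 and 135-fold without gland 3. Klk5, the trypsin-like protease at the head of the epidermal cascade that activates Klk7 and Klk14, was at 3.21, 6.20 and 41.8 normalized cpm in the lowest, median and highest tumor. It had no read in the glands, and its tumor mean of 10.04 ± 11.4 (SD, n = 10) was at least 170-fold above the gland floor, or at least 110-fold without tumor 7. Klk9 was at 2.16, 3.90 and 33.0 in the lowest, median and highest tumor, and at 0.471, 0 and 0.366 in glands 1, 2 and 3. Its tumor mean of 6.88 ± 9.34 (SD, n = 10) was 24.7-fold above that of the glands, 14.2-fold without tumor 7 and 37.6-fold without gland 1, so that its size rested in part on single libraries.

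Of the inhibitors, Cst6 had the larger difference between tumors and glands. Its log2 difference was also the largest of the 10 genes with a pseudocount of 1 or 5, but with 0.1 Klk7 (11.17) and Klk6 (10.51) exceeded Cst6 (10.002). The lowest, median and highest tumors were at 312.4, 836.7 and 2219 normalized cpm, and the glands were at 0.514, 0.465 and 1.34. The mean was 1013 ± 703 (SD, n = 10) against 0.773 ± 0.492 (SD, n = 3), a 1310-fold difference, which was 2070-fold without gland 3. Tumors 7 and 9 were close to each other at the top with 2219 and 2189, and tumors 6 and 4 were at the bottom with 312.4 and 323.2.

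Spink5 was at 17.2, 47.1 and 182.1 normalized cpm in the lowest, median and highest tumor and at 1.16, 1.96 and 1.83 in the glands. The mean of 61.9 ± 52.3 (SD, n = 10) was 37.5-fold above that of the glands, 1.65 ± 0.432 (SD, n = 3). As for Cst6, tumors 7 and 9 were highest and tumor 6 was lowest, and no tumor overlapped the glands.

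In normalized cpm the tumor mean of Cst6 (1013) was above that of Klk10 (461.1). Levels of different genes were compared per kb of exon, which joins the exons of all annotated transcripts of a gene. This length was 4090 bases for Cst6 and 1373 for Klk10, and the place of Cst6 in normalized cpm per kb rests on it. In this unit the tumor means followed the order Klk10 (336 ± 241 normalized cpm per kb), Cst6 (248 ± 172), Klk7 (160 ± 164), Klk6 (150 ± 172), Klk11 (73.9 ± 27.7), Klk8 (63.5 ± 40.4), Spink5 (12.9 ± 10.9), Klk5 (7.51 ± 8.54), Klk13 (5.83 ± 6.17) and Klk9 (4.66 ± 6.33; SD, n = 10 for each). Neighbors in this order were compared by their log2 ratio within each tumor. The mean ratio exceeded its SD over the tumors for Cst6 above Klk7, Klk8 above Spink5, Spink5 above Klk5 and Klk13 above Klk9. It did not for Klk10 and Cst6, Klk7 and Klk6, Klk6 and Klk11, Klk11 and Klk8, or Klk5 and Klk13, so these neighbors did not differ beyond their spread. Klk7 was above Klk6 in 5 of the 10 tumors. The break in the order lay between Klk8 and Spink5, whose log2 ratio per kb was 2.51 ± 0.56 (SD, n = 10) and positive in 10 of 10 tumors.

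The makeup of the kallikrein transcripts differed moderately between tumors. Klk10 formed between 37.7% and 51.8% of the summed per-kb level of the 8 kallikreins, Klk7 between 10.9% and 26.99%, and Klk6 between 12.9% and 24.1%. Klk11 formed 17.1% in tumor 4 but 5.02% in tumor 7, the tumor with the highest level of each kallikrein. Klk5, Klk9 and Klk13 together stayed small, with no single share above 1.24%. The per-kb ratio of Spink5 to Klk7, the inhibitor to a protease it blocks, lay between 0.0485 in tumor 8 and 0.131 in tumor 9, with a median of 0.0765. The ratio of Cst6 to Klk10 was less steady, from 0.272 in tumor 4 to 2.07 in tumor 9, whereas that of Cst6 to Spink5 stayed between 14.3 and 30.5.

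The tumors were unequal. Tumor 7 had the highest value of each of the 10 genes, and tumor 3 or tumor 9 came second, tumor 3 for 5 genes and tumor 9 for 5 genes. Among all 11795 genes tested, tumor 7 was the highest tumor for 11.99%. Its excess over the median of the 9 other tumors ranged from 2.14-fold for Klk11 to 8.92-fold for Klk9. Tumor 3 was second for Klk6, Klk9, Klk10, Klk11 and Klk13, and tumor 9 for Klk5, Klk7, Klk8, Cst6 and Spink5. Tumor 9 also had the highest share of reads of Rn45s, the ribosomal RNA precursor, at 27.4% against 0.456% to 9.32% in the other tumors, and the part of this in its values was not tested. Tumor 7 was at 2.87%.

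**Figure D2:**
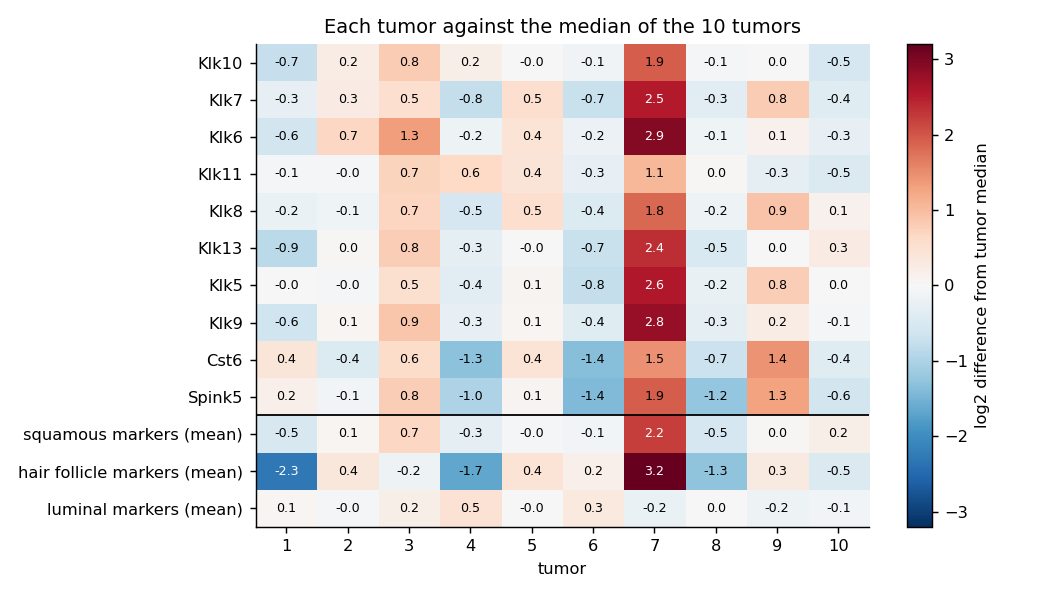
Log2 difference of each tumor from the median of the 10 tumors, for each gene and, under the line, for the mean log2 level of 3 marker lists, with columns for tumors 1 to 10. The column of tumor 7 is positive for all 10 genes and for the squamous and hair follicle lists, and tumor 9 is high for Cst6 and Spink5 but not for Klk10 or Klk11.

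The same tumor stood out in squamous and hair follicle markers. The 15 squamous genes summed to 8541 normalized cpm in tumor 7, against 1633 to 4517 in the other tumors and 204 to 337 in the glands, and tumor 7 was the highest tumor for 14 of the 15. Krt5 and Krt14, the keratins of basal epithelium, rose by log2 2.82 ± 0.47 and 1.73 ± 0.46 (SE, adjusted p = 0.000422 and 0.0117 in limma) over all tumors. The 13 hair follicle genes listed summed to 3874 in tumor 7 against 124 to 1681 in the other tumors and 8.69 to 14.1 in the glands, with tumor 7 highest for all 13. Tchh, which codes for trichohyalin of the inner root sheath, was at 1912 in tumor 7 and at 9.48 ± 3.25 in the glands, and Krt73 was at 643.5 in tumor 7 with no read in the glands. Of the defining genes of these lists, Ivl and Sprr1b had no read in the glands, and 8 of the 13 hair follicle genes had none. By mean log2 level tumor 3 came second both for the 10 genes (6.72) and for the squamous list (6.73), but it was at 3.81 for the hair follicle list, where 4 other tumors besides tumor 7 were higher. Tumor 6, which was lowest for the 10 genes (5.32), was at 5.97 for the squamous list, above 3 other tumors. The part of both lists in the values of tumor 7 was not tested.

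In none of the other marker lists was tumor 7 the highest tumor. The 10 luminal genes, among them Elf5 and Krt19, summed to between 1026 and 2567 in the tumors and between 1265 and 2862 in the glands. Of the 8 luminal genes past the filter 2 were called higher and 1 lower, where 10.2% of all genes tested were called higher and 6.99% lower. The higher ones were Krt7, a simple epithelial keratin, with a log2 fold change of 3.32 ± 0.38 (SE, adjusted p = 1.76e-05 in limma), and Prom1, which codes for prominin-1, with 3.66 ± 0.21 (SE, adjusted p = 2.41e-08), and both were named after their values were seen. The lower one was Elf5, which fell by 1.68 ± 0.52 on the log2 scale (SE, adjusted p = 0.0251). Prom1 passed the filter only through the tumors, as no gland was above 5 normalized cpm (2.00 ± 0.672, SD, n = 3). No weight is placed on its call. Adipocyte genes, among them Fabp4 and Cfd, were at 40.3 to 436 in the tumors and 3672 to 11192 in the glands. Milk genes, among them Csn1s2a and Csn2, were at 1384 to 76623 in the tumors and 165034 to 305121 in the glands. Sebaceous genes, among them Soat1 and Scd3, gave 26.4 to 54.2 and 27.2 to 63.4, and lymphocyte genes, among them Ptprc and Cd79b, 43.9 to 234 and 44.3 to 725. The 2 salivary genes listed, Amy1 and Egf, were at 2.27 to 8.26 in the tumors and 45.3 to 78.4 in the glands. Skeletal muscle genes, among them Acta1 and Myh4, reached 2065 in tumor 4 and 362 in tumor 10 but at most 12.1 in the other tumors and 24.02 in the glands. Tumors 4 and 10 were neither the highest nor the second highest tumor for any of the 10 genes.

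Tumors of one mouse also differed. Between the tumors of the mouse that gave tumors 2 and 3, the higher value exceeded the lower by a median of 1.72-fold over the 10 genes, with tumor 3 the higher for all 10. In the mouse of tumors 5 and 6 the median was 1.86-fold, with tumor 5 the higher for all 10. In the mouse of tumors 8, 9 and 10 the median of highest to lowest was 1.96-fold, and it reached 6.03-fold for Spink5 and 4.35-fold for Cst6, both highest in tumor 9. Tumor 9 was the highest of that mouse for 8 of the 10 genes.

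Over the 10 tumors, the log2 levels of the 45 pairs of genes correlated with Pearson r between 0.29 and 0.98 and a median of 0.84, as a description over tumors of which several share a mouse. Without tumor 7 the range was -0.03 to 0.94 and the median 0.64. The lowest pair was Klk11 with Cst6 in both cases. The relation of Cst6 to the other 9 genes was tested across the 6 mice, with tumors of one mouse averaged on the log2 scale, since the choice of the genes did not use this variation.

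The highest correlation was with Spink5, with r = 0.95 (exact permutation p = 0.00556, two-sided, adjusted p = 0.05 over 9 genes, n = 6) and Spearman's rho = 0.83 (exact permutation p = 0.0583, adjusted p = 0.462). It was 0.80 after leaving out the 2 mice farthest from the median of Cst6. Klk7 gave r = 0.86 (exact permutation p = 0.0319, adjusted p = 0.0958, n = 6; rho = 0.60, exact p = 0.242), Klk8 gave r = 0.86 (exact permutation p = 0.0458, adjusted p = 0.103, n = 6; rho = 0.66, exact p = 0.175) and Klk5 gave r = 0.85 (exact permutation p = 0.0139, adjusted p = 0.0625, n = 6; rho = 0.77, exact p = 0.103). Without the 2 farthest mice, r was 0.69 for Klk5 but -0.11 for Klk7 and -0.25 for Klk8, so that the last 2 relations rested on those mice. Klk10 gave r = 0.54 (exact permutation p = 0.269, adjusted p = 0.303, n = 6; rho = 0.03, exact p = 1.0) and Klk11 gave r = 0.25 (exact permutation p = 0.647, adjusted p = 0.647, n = 6; rho = -0.03, exact p = 1.0). For Klk6, Klk9 and Klk13 r was between 0.70 and 0.73 with rho between 0.26 and 0.37, and the adjusted exact permutation p was 0.220 for each. Without the 2 farthest mice r was negative for these 3, for Klk10 and for Klk11, between -0.41 and -0.21. The adjusted exact permutation p of rho lay between 0.462 and 1.0 for all 9. None of the 9 correlations was below an adjusted p of 0.05, and that of Spink5 was at it. When libraries were scaled to pan-epithelial genes, 2 passed, Klk5 (r = 0.86) and Spink5 (r = 0.95), both at an adjusted exact permutation p of 0.0312.

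**Figure D3:**
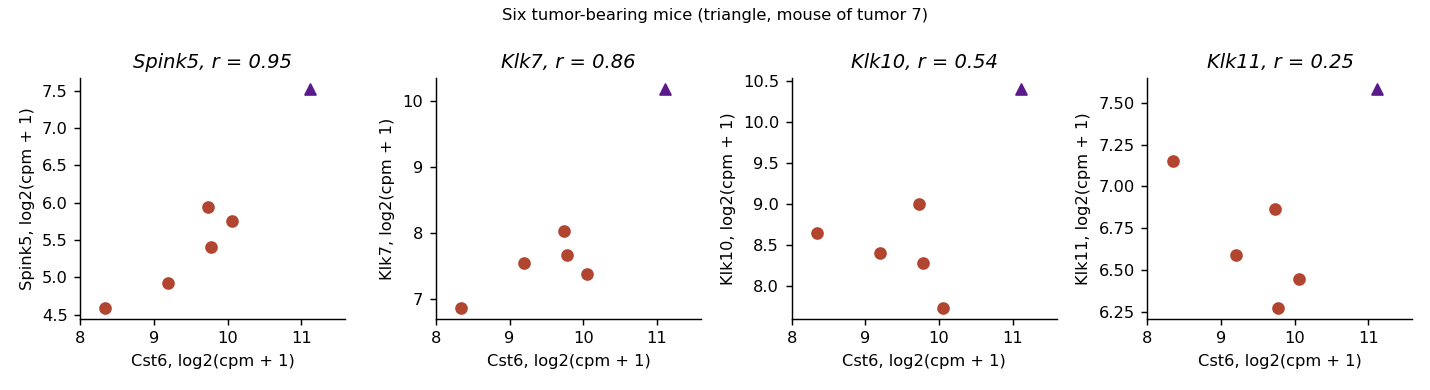
Log2(normalized cpm + 1) of Spink5, Klk7, Klk10 and Klk11 against that of Cst6 in the 6 tumor-bearing mice, each point a mouse and the triangle the mouse of tumor 7. The points of Spink5 lie along a rising line with r = 0.95, whereas the 5 mice other than that of tumor 7 show no rise of Klk10 or Klk11 with Cst6.

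The 8 kallikreins lie on chromosome 7 within 139 kb (GRCm38.p6, chr7:43712567-43851181), all on the plus strand, with Klk12 as the only other protein-coding gene of the RefSeq annotation inside that span. Cst6 lies on chromosome 19 (chr19:5344705-5349574, minus strand). Klk10, Klk7 and Klk6, which are not all adjacent, had the largest log2 differences, and the lower Klk9 lay between Klk10 and Klk8. Of 16 other listed genes within 500 kb of the span, 9 were tested, of which 2 were called higher and 1 lower, where 10.2% of all genes tested were called higher and 6.99% lower. Klk14, the trypsin-like protease next to Klk13 in the table, rose from 1.22 ± 0.988 (SD, n = 3) to 83.3 ± 89.8 (SD, n = 10) normalized cpm, a log2 fold change of 4.84 ± 0.64 (SE, adjusted p = 5.87e-05 in limma). Clec11a, a secreted growth factor gene 591 kb from the start of Klk13, rose by 2.29 ± 0.37 on the log2 scale (SE, adjusted p = 0.000282), and Etfb, which codes for a mitochondrial electron carrier, fell by 1.03 ± 0.19 (SE, adjusted p = 0.000725). The median log2 fold change of the 9 tested neighbors was 0.57, beside 0.01 over all genes tested. No gland was above 5 normalized cpm for Klk14 or for Clec11a (2.29 ± 1.51, SD, n = 3), so both passed the filter only through the tumors. No weight is placed on the count of higher neighbors or on this median. Counting by strand is not stated for these data, so reads of overlapping antisense transcripts cannot be told apart from those of a kallikrein.

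**Figure D4:**
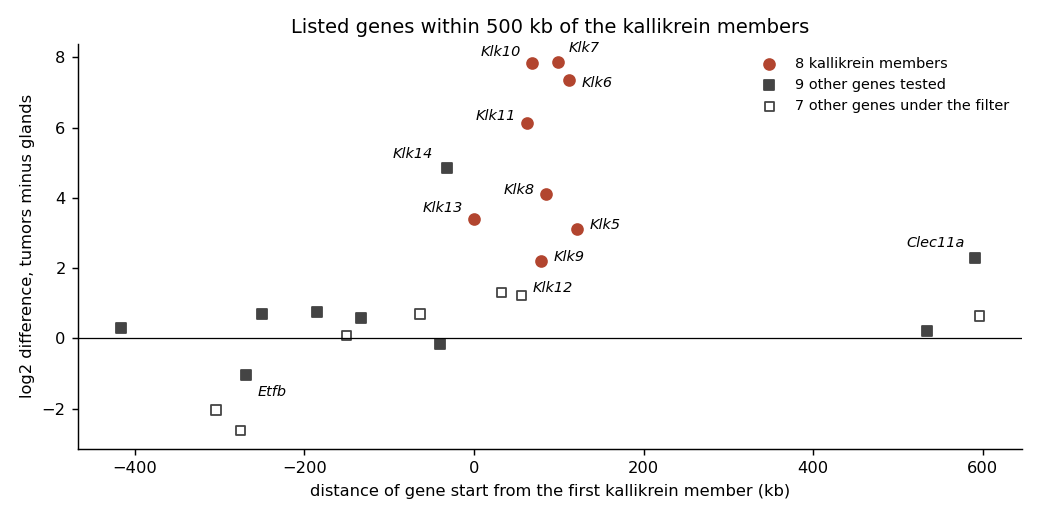
Log2 difference between tumors and glands of each listed gene within 500 kb, without the filter on low values, against the distance in kb of its start from that of Klk13. The kallikreins lie between 1.22 for Klk12 and 7.86 for Klk7, and the genes of other families lie between -2.62 and 2.29.

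The 250 bases before an annotated start are shown for 3 of the kallikreins whose window ends where the gene begins. They were chosen because Klk7 had no gland read, Klk10 had the highest level and Klk11 varied least among the tumors. Capitals mark matches to the motifs searched, on either strand. The windows, from RefSeq in GRCm38.p6, are chr7:43811044-43811293, chr7:43780804-43781053 and chr7:43774367-43774616, all on the plus strand and written 5′ to 3′.
Klk7: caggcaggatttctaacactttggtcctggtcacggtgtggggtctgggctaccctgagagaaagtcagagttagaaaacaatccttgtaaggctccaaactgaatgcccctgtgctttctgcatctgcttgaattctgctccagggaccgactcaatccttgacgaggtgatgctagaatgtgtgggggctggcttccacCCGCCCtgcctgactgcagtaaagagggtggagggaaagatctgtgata
Klk10: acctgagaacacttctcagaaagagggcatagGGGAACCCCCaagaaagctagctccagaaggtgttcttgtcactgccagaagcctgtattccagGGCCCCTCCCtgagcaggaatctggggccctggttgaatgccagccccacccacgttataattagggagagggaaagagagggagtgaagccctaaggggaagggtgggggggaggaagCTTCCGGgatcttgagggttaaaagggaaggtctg
Klk11: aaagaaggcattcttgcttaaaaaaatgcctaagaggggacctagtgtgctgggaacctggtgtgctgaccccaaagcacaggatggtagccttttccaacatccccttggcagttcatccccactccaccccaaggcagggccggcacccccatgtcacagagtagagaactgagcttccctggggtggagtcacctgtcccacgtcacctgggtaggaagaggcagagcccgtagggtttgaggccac

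All 8 kallikreins had an entry in the promoter table, with 10 windows in all. The windows were searched on both strands for the letters TGANTCA of the AP-1 motif, GCCNNNGGC of AP-2, AACNGGTT of grainyhead-like factors, ATCAAAG of Tcf and Lef factors, CCGGAAG of Ets factors, CCACNCCC of Klf factors, GGGCGG of Sp1 and TATAAA of the TATA box, none of which contains another. The AP-2 and Sp1 motifs were added after a first search had found few matches, and the Ets motif after its match in the Klk10 window had been seen, so that their presence in these windows is no independent observation. An NF-kB motif, read as GGGA and CC with any 4 bases between them, was in the first search as well, and its free bases can overlap other motifs. The Klk7 window held the Sp1 motif on the minus strand, 49 bases before the start, and the Klk10 window held the Ets motif on the minus strand, 35 bases before it. The Klk10 window also held the NF-kB motif on the plus strand, 218 bases before the start, and on the minus strand, 154 bases before it. The Klk11 window shown held none of the 9. Of the 10 windows 4 held the Sp1 motif, 2 the AP-2 motif, 2 the NF-kB motif, 1 the Ets motif and 1 the Klf motif. Over the 32851 windows of all genes these were in 32.7%, 13.7%, 17.6%, 6.91% and 15.9%. None of the 10 windows held the motif of AP-1, of grainyhead-like factors, of Tcf and Lef or of the TATA box, which were in 6.75%, 1.79%, 3.21% and 12.4% of all windows. A match describes letters in a window and not a bound site.

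Genes that work with these proteases and inhibitors were examined in the fit over all genes. Their lists were also drawn up with earlier results of these data known, so that their counts and p-values describe these libraries and are not independent evidence. Of 112 named related genes 68 were listed and 48 passed the filter, and of these 28 were called higher and 1 lower, where 10.2% of all 11795 genes tested were called higher and 6.99% lower. Called means an FDR below 0.05 and more than a 2-fold change in limma. The filter keeps a gene with low gland values only if its tumors are high. Of the 28 called higher, 18 had no gland above the filter value and so passed only through the tumors, namely 1 other tissue kallikrein, 4 other epidermal proteases, 3 serine protease inhibitors, 3 cystatins, 1 enzyme on the Cst6 route and 6 substrate genes. No weight is placed on their counts. A log2 fold change fitted to a gene with low gland values depends on the pseudocount, so genes with 1 to 3 gland reads are given by the ratio of the tumor mean to the pooled gland level with its 95% exact Poisson interval, and genes with none by the floor of 3 reads over the group. Without the filter 43 of the 68 were higher and 2 lower (Serpinb9 and Cst7), against 10.5% and 10.1% of 15213 genes.

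Of the other tissue kallikreins, Klk14 was the one that passed the filter. Klk12 did not, at 1.92 ± 1.36 normalized cpm over 10 tumors and 0.169 ± 0.197 over 3 glands (SD). Among other proteases of the epidermis, 5 of 11 tested were higher and none lower. Asprv1, an aspartic protease that processes filaggrin, rose from 3.49 ± 0.646 to 449 ± 349 normalized cpm, a log2 fold change of 6.36 ± 0.48 (SE, adjusted p = 3.32e-07). Tmprss11d, an airway trypsin-like protease with 2 gland reads, rose with a ratio of 322 and an interval from 89.1 to 2657 (adjusted p = 5.26e-05 in limma). Prss22 rose by log2 3.33 ± 0.49 (SE, adjusted p = 0.000148). St14 and Prss8, which code for matriptase and prostasin and act upstream of the epidermal cascade, did not pass. St14 was at 197 in the tumors and 210.1 in the glands, with a log2 fold change of -0.03 ± 0.32 (SE, adjusted p = 0.957), and Prss8 at 64.1 and 98.0, a change of -0.54 ± 0.28 (SE, adjusted p = 0.177). Both were chosen after their values were seen.

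Among serine protease inhibitors, 7 of 14 tested were higher and 1 was lower. Spink12, a relative of Spink5, had no read in the glands and 53.3 ± 40.3 normalized cpm in the tumors (adjusted p = 1.22e-06), at least 905-fold above the floor. Wfdc2, a whey acidic protein family member, rose by log2 4.27 ± 0.55 (SE, adjusted p = 4.33e-05). Serpinb5, which codes for maspin, rose by log2 3.41 ± 0.45 (SE, adjusted p = 6.2e-05). Serpinb9, an inhibitor of granzyme B, fell by 1.29 ± 0.38 on the log2 scale (SE, adjusted p = 0.0209), from 35.0, 21.7 and 65.0 in the glands to a mean of 15.7, and its call was lost without gland 1 and without gland 3. Spint1 and Spint2, the inhibitors of matriptase, did not pass and were chosen after their values were seen, with log2 fold changes of 0.22 ± 0.25 and 0.18 ± 0.21 (SE).

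Of 5 other cystatins tested, 3 were higher and none lower. These were the stefin A relatives Cstdc5, Stfa3 and Csta1. Cstdc5 had 1 gland read, a ratio of 4842 and an interval from 869 to 191237 (adjusted p = 8.62e-06 in limma). Stfa3 also had 1 gland read, with a ratio of 1945 and an interval from 349 to 76813 (adjusted p = 1.95e-05). Csta1 had no gland read and was at least 281-fold above the floor (adjusted p = 0.000181), and its fitted log2 fold change moved from 1.87 with a pseudocount of 5 to 6.95 with 0.1. They belong to a family of near-identical copies, so the split of reads between them is uncertain. The broadly expressed Cst3 and Cstb, chosen after their values were seen, did not pass, with log2 fold changes of 0.64 ± 0.46 and 1.11 ± 0.47 (SE) and adjusted p of 0.334 and 0.0963.

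Of the enzymes on the Cst6 route, 5 of 10 tested were higher and none lower. Tgm5, a transglutaminase of the cornified envelope, had 2 gland reads and rose with a ratio of 230.4 and an interval from 63.8 to 1902 (adjusted p = 4.33e-05 in limma). Ctsl, the cathepsin that cystatin M/E inhibits, rose from 282 ± 107 to 734 ± 346 normalized cpm, a log2 fold change of 1.30 ± 0.40 (SE, adjusted p = 0.0247), and 8 of 10 tumors lay above all glands. Its call was lost without gland 1, without gland 2 and with pan-epithelial scaling. Ctss, the cathepsin of antigen-presenting cells, rose by log2 1.202 ± 0.29 (SE, adjusted p = 0.00625) and also lost its call with that scaling. Lgmn, which codes for legumain, was called at log2 1.01 ± 0.20 (SE, adjusted p = 0.00159), just past the fold threshold, and lost its call under 10 of 24 other settings, among them leaving out tumor 1, 3 or 9 or gland 1 or 2. Tgm1, the transglutaminase of the same route, did not pass (log2 fold change 0.66 ± 0.39, adjusted p = 0.245). Lgmn and Tgm1 were named after their values were seen.

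Of 9 listed genes that code for known kallikrein substrates 7 passed the filter and were called higher, and without the filter 9 of 9 were. All of the 7 but F2rl1 passed the filter only through the tumors. Dsg1a, a desmoglein of the desmosome, had 1 read in the glands and 35.99 ± 33.5 normalized cpm in the tumors, a ratio of 1833 with an interval from 329 to 72389 (adjusted p = 1.88e-05 in limma). Cdsn, which codes for corneodesmosin, rose by 4.18 ± 0.66 (SE, adjusted p = 0.000261), and Il1b, a cytokine precursor, by 3.79 ± 0.58 (SE, adjusted p = 0.000205). Dsc1 and Flg had no gland read and were at least 343-fold and at least 211-fold above the floor, and Camp and F2rl1 had log2 fold changes of 3.35 and 1.53. Tumor 7 was the highest tumor for 6 of the 9 substrate genes listed.

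**Figure D5:**
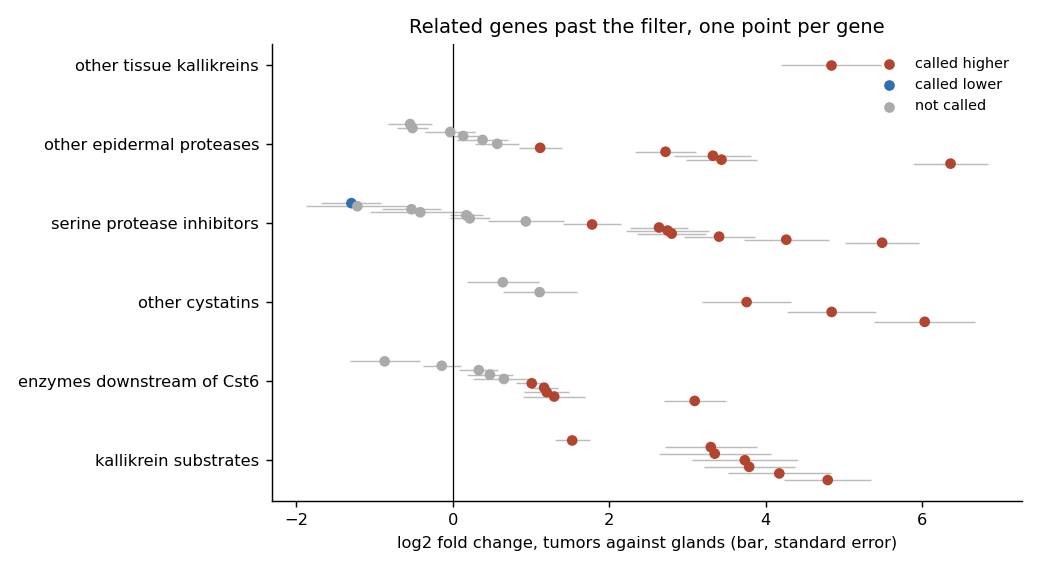
Log2 fold change with its standard error for each related gene past the filter, by list, with called genes in red or blue and others in gray. Red points fill the substrate list, whereas the protease, inhibitor and Cst6-route lists also hold genes near 0.

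The genes whose levels were most like the mean log2 level of the 10 genes across the 10 tumors, among 11786 others tested, were Endou (Pearson r = 0.97), Serpinb8 (0.96), Btg2 (0.96), Ivl (0.95), Prdm1 (0.95), Nrarp (0.94), Slpi (0.94) and Nipal4 (0.94). Without tumor 7 these r values lay between 0.80 and 0.92. Several tumors share a mouse and the genes share the libraries, so no p is given. Ivl codes for involucrin of the cornified envelope, Slpi and Serpinb8 are protease inhibitors, and Prdm1 is a transcriptional repressor. Their mean levels were 42.9 ± 44.7 for Endou, 199.9 ± 118 for Slpi and 27.03 ± 13.45 normalized cpm for Prdm1 in the tumors (SD, n = 10), against 0.995 ± 0.0287, 52.7 ± 13.8 and 3.72 ± 1.46 in the glands (SD, n = 3). Btg2 differed from the rest in its group means, with 45.2 ± 7.42 in the tumors and 77.1 ± 11.4 in the glands.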

How the data were processed

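Reads mapped to mm10 were summed per gene by featureCounts, and edgeR scaling followed. The deposited signal values are these normalized read counts, and 100% of them were whole multiples of the value of 1 read (tolerance 0.05). Reads were recovered by that value for the count tests. The 10 genes and all gene lists were chosen with earlier results of these data known. Genes above 5 in fewer than 7 of the 13 libraries were dropped, and 11795 of 15213 were tested with limma 3.58.1 (trend) on log2(value + 1) in R 4.3.3, with condition as the only term, Benjamini-Hochberg adjustment over all genes tested, an FDR of 0.05 and a 2-fold change. The p-values take the 10 tumors as separate samples, although several share a mouse. Named genes were the 10 genes, Tsg101, the 3 largest called rises and falls of each related list, called neighbors within 500 kb, the 8 genes most like the 10 over the tumors and the 2 genes of each marker list with the highest mean over all libraries. Correlations used exact permutation over pairings (scipy 1.17.1). Alternatives were edgeR 4.0.16, DESeq2 1.42.0, other pseudocounts, scalings, blocks and left-out libraries. Exon lengths join the exons of all transcripts of a gene in the GENCODE annotation, and coordinates are those of GRCm38.p6. The labels name both UNMC and Novogene without saying for which libraries, so no batch could be assigned. Fits were checked on simulated counts.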

Additional observations from a re-analysis of the deposited data

Results flagged for a closer look

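In the 10 tumors, the library at one end was checked by its gap to the nearest other tumor as a share of the range, against Dixon's 95% critical value for 10 samples, on normalized cpm. Its rate of 1 in 20 groups holds for independent, normally distributed values. These levels were skewed and several tumors share a mouse, so that rate does not apply here. Nothing is read from the counts, since the share of all genes past the critical value was not computed. Of 35 named genes, 26 were past it, 22 of them through tumor 7, and 5 were past it on the log2 scale as well. Tumor 7 was past it for 7 of the 10 genes, Klk5 (41.8), Klk6 (941.4), Klk7 (1158), Klk8 (254.5), Klk9 (33.0), Klk10 (1347) and Klk13 (52.4), of which 4 were also past it on the log2 scale. Klk11, Cst6 and Spink5 were not. Among related genes tumor 7 stood apart for Prss22 (56.1), Spink12 (152.6), Cstdc5 (316.9), Stfa3 (125.2), Csta1 (55.3), Tgm5 (25.9) and Cdsn (256.2). Tumor 9 did for Wfdc2 (319.1), Serpinb5 (537.6) and Ctss (616.4), and tumor 3 did for Tmprss11d (35.5). The 8 genes most like the mean of the 10 genes were chosen for a pattern in which tumor 7 is high, and tumor 7 stood apart for each, with Endou at 164.2, Serpinb8 at 72.7, Btg2 at 62.7, Ivl at 43.1, Prdm1 at 58.5, Nrarp at 70.1, Slpi at 508.7 and Nipal4 at 35.3. The squamous and hair follicle lists were also highest in tumor 7, and their part in these values was not tested.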

How the results depend on the processing

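The median log2 difference of the 10 genes between tumors and glands was 5.16, and 6.85 with a pseudocount of 0.1 and 3.72 with 5, and leaving out each library gave 4.998 to 5.51. The 10 genes kept their sign with the other pseudocounts, with pan-epithelial scaling, with tumors of one mouse summed and without each library. The count models and the blocked fits were run over all genes past the filter, 9 of the 10 among them. Their estimates for these genes are not reported here. The Klk8 difference moved most with single glands, 3.095 without gland 2 and 4.84 without gland 3. Calls over all genes were 1204 higher and 825 lower. They were 759 and 1552 with pan-epithelial scaling, which moved the median of all genes from 0.01 to -0.33 and the share of higher calls from 59.3% to 32.8%, and 1603 and 1538 without the filter. Leaving out each library gave 977 to 1506 higher and 659 to 1121 lower, with the lowest counts without gland 1 and the highest without gland 3. Related genes were 28 higher and 1 lower, 43 and 2 without the filter, with 2 lower in edgeR and DESeq2 (Serpinb9 and Wfdc18), and 0 lower without tumor 9 and gland 3, a choice made after seeing the data because of their Rn45s share. Leaving out each library gave 26 to 29 higher and 0 to 1 lower. Tumors and glands came from different mice, so the numbers do not pair them. Deviations of same-numbered tumors and glands had r = -0.58, 0.04 and -0.66, which with 3 glands cannot decide on pairing. The fit with a replicate block of 3 against 3 libraries gave 362 higher and 182 lower over all genes, and 19 and 0 related genes. Of the 9 correlations of Cst6, 0 were below 0.05, 2 with pan-epithelial scaling and 5 with the 10 tumors as points, which are not independent. The cause of these changes was not tested. The 3 glands limit the precision of every gland mean, and members at 0 to 4 gland reads have folds known only as bounds or wide intervals.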
